A study of Homo sapiens with 6 samples.

Results

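RNA of 10 inflammatory cytokine and chemokine genes was followed in TC28a2 cells, an immortalized human chondrocyte line, after treatment with the class I histone deacetylase (HDAC) inhibitor mocetinostat. The genes were *IL6*, *IL11*, *LIF*, *IL1A*, *IL1B*, *CXCL1*, *CXCL2*, *CXCL8*, *CCL2*, and *IL32*, taken by symbol as 10 of the 60623 genes in the table of raw counts. Each condition had 3 samples: cells given 2 μM mocetinostat for 24 hours, and controls given DMSO, its solvent, for the same time. The labels name no added inflammatory stimulus. The paper describes the samples as independent experiments, whereas the labels give only replicate numbers, so the p-values measure the spread between these samples, which may be partly technical. All samples came from this 1 cell line.

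These genes encode secreted proteins through which cells of a joint signal tissue damage and inflammation. The IL-6 family cytokines IL-6, IL-11, and leukemia inhibitory factor (LIF) act through receptors that share the subunit gp130 and the JAK-STAT pathway. IL-1α and IL-1β act through the IL-1 receptor, and chondrocytes exposed to IL-1 produce matrix-degrading enzymes and further cytokines. Of the chemokines, CXCL1, CXCL2, and CXCL8 (interleukin 8) attract neutrophils through CXCR1 and CXCR2, and CCL2 attracts monocytes through CCR2.

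Regulation of these genes is known to depend on short promoter elements bound by NF-κB, AP-1, and C/EBP factors and on AU-rich elements in the 3′ UTR, where proteins such as ZFP36 start mRNA decay. The 150 bases before the start sites of 3 CXC chemokine genes and *IL6* (RefSeq, GRCh38.p14, each 5′ to 3′ on the strand of the gene) are shown because *CXCL1* and *CXCL2* are near copies of each other here and because all 4 hold the κB letters. Capitals mark GGNNNTTCC (κB) and TGANTCA (AP-1), searched on both strands. The CAA that opens the *IL6* stretch is the end of a C/EBP match (TTGCNNAA).
CXCL1, chr4:73869243-73869392, plus strand: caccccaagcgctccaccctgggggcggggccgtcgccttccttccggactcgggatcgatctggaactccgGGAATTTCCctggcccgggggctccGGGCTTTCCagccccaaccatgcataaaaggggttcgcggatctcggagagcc
CXCL2, chr4:74099196-74099345, minus strand: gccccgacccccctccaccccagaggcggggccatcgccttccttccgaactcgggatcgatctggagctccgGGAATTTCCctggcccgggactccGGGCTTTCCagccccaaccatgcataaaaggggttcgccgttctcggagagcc
CXCL8, chr4:73740419-73740568, plus strand: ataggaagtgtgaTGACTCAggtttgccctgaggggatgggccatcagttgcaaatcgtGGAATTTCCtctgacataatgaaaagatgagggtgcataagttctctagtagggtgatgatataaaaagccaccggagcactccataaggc
IL6, chr7:22727050-22727199, plus strand: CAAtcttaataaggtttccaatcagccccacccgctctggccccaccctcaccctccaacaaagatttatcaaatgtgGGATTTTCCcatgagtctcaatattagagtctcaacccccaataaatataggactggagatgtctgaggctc

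Aligned with gaps allowed, *CXCL1* and *CXCL2* matched at 135 of these 150 bases and, aligned separately, at 95 of the 100 nearest the start. Both held the κB letters 2 times, at −78 to −70 and −53 to −45 in *CXCL1* and at −77 to −69 and −53 to −45 in *CXCL2*, where −1 is the base before the start. In *CXCL8* the κB letters lay at −91 to −83 and the AP-1 letters at −137 to −131, and in *IL6* the κB letters lay at −72 to −64. The form GGAATTTCC reads as κB on both strands and was counted once. Over 250 upstream bases, 5 of the 8 genes with an entry held κB letters (also *IL32*), against 17.1% of 27305 RefSeq promoters of the same length. AP-1 letters stood in 3 of the 8 (*IL11*, *IL1A*, and *CXCL8*) against 6.60%, and C/EBP letters in 3 (*IL6*, *IL1B*, and *CXCL2*) against 9.13%. These are matches of letters, and binding was not measured.

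The 30-base stretch of the 3′ UTR densest in the pentamer ATTTA (GENCODE release 44, GRCh38, DNA letters) is shown for genes whose RNA changed, with each ATTTA in capitals.
CXCL2, chr4:74097586-74097615, minus strand: cttctATTTATTTATTTATTTATTTAtttg
CXCL1, chr4:73870673-73870702, plus strand: aagtcttctATTTATTTATTTAttcattag
CXCL8, chr4:73743111-73743140, plus strand: cctATTTAttATTTAtgtATTTATTTAagc
IL1B, chr2:112829995-112830024, minus strand: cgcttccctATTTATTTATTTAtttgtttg
LIF, chr22:30240522-30240551, minus strand: ATTTAttcaatgtcatATTTAaaatATTTA
CCL2, chr17:34256950-34256979, plus strand: aatgttaattcttATTTAagttattgatgt

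The whole 3′ UTR held ATTTA 10 times in *CXCL2*, 9 times each in *CXCL8* and *IL11*, 7 times in *LIF*, 6 times each in *IL6*, *IL1B*, and *CXCL1*, and 5 times in *IL1A*. *CCL2* held 1 copy and *IL32* held 0. Thus 8 of 10 genes had 3 or more copies, against 43.9% of 18492 genes with a 3′ UTR of at least 100 bases. The longer element TTATTTATT stood in 6 of the 10 (*IL11*, *LIF*, *IL1B*, *CXCL1*, *CXCL2*, and *CXCL8*) against 8.92%. *LIF*, whose RNA fell, was thus among the genes with several copies, as were the 4 called higher, among which the call of *CXCL2* was weak. Its 3′ UTR is longer, however. Per kb of 3′ UTR, *LIF* held 2.19 copies and *CCL2* 2.66. *CXCL8* held 7.19 per kb, *CXCL1* 7.77, *IL1B* 9.84, and *CXCL2* 14.0. Of the genes not called or not tested, *IL6* held 14.1 per kb, *IL11* 5.54, *IL1A* 4.38, and *IL32* 0. The median of the 18492 genes was 1.64 per kb. A link between these densities and the RNA changes was not tested.

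Total counts ranged from 4873426 to 11031132 with DMSO and from 1619344 to 5089542 with mocetinostat, so that 3 counts corresponded to 0.271 to 0.625 CPM (TMM-normalized counts relative to library size) with DMSO and to 0.595 to 1.86 CPM with mocetinostat. The edgeR quasi-likelihood test covered 13966 genes. A gene was called when its Benjamini-Hochberg adjusted p was under 0.05 and its log2 fold change was over 1 or under −1 (SE, standard error of that value). The median log2 fold change of all genes tested was near 0 and that of the 9 cytokine and chemokine genes tested was 0.39. The gene of the glycolytic enzyme GAPDH, often used for scaling, itself had a log2 fold change of −0.53, and scaling each library to its *GAPDH* count moved the median of all genes by 0.54.

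Mocetinostat treatment was accompanied by higher RNA of *CXCL8*, *CXCL1*, *CXCL2*, and *IL1B* and by lower RNA of *LIF* and *CCL2*. Thus 4 genes were upregulated, where 20.2% of all genes tested were, and 2 were downregulated, where 8.18% were. The call of *CXCL2* was weak: its samples overlapped between conditions, and the call was lost in several alternatives, DESeq2 among them. That of *CCL2* was also lost in some alternatives. *IL6*, *IL11*, and *IL32* were not called, and *IL1A* had too few counts to be tested. Without a minimum fold change, 5 of the 9 had an adjusted p under 0.05 and were higher (32.9% of all genes) and 3 were lower (31.4% of all genes). In 8 of the 9 genes tested the adjusted p was thus under 0.05, as in 64.3% of all genes. Treated and control samples were fully separated in 7 of the 10 genes, 5 with every mocetinostat-treated sample above every DMSO-treated sample (33.7% of all genes tested) and 2 with every one below (32.8%). In such bulk samples, a change in how many cells make a transcript and a change in RNA per cell cannot be told apart.

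**Figure D1:**
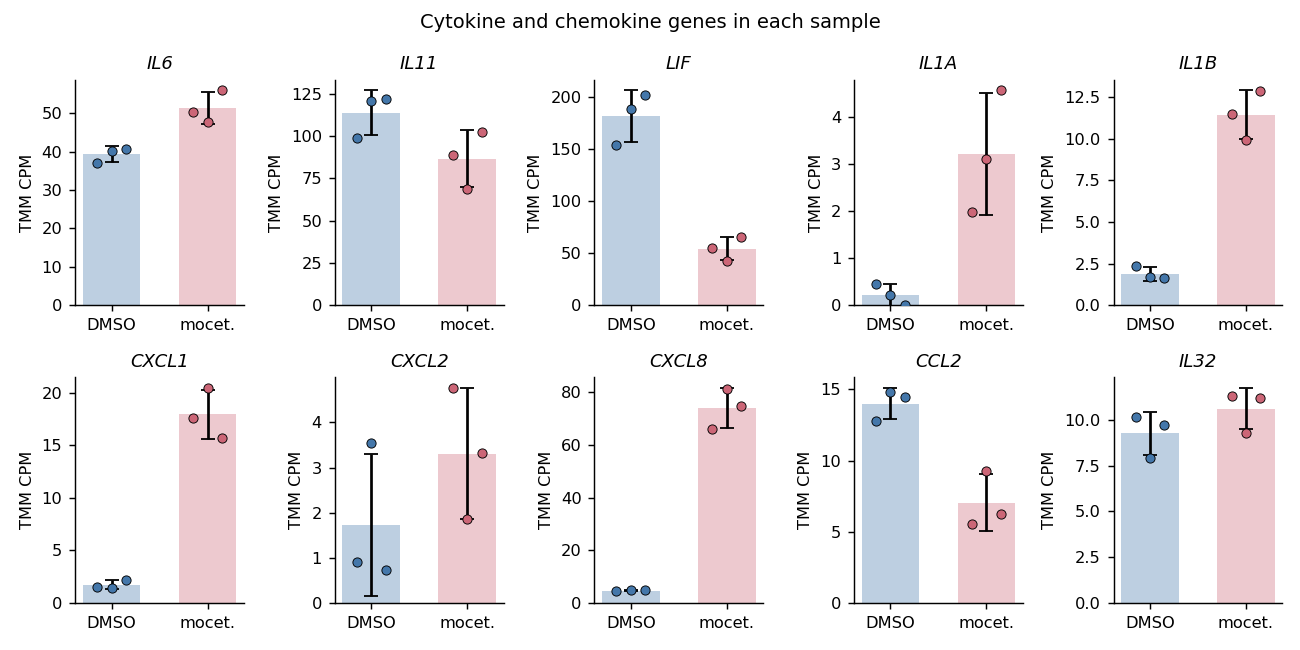
Each panel plots the TMM-normalized CPM of 1 gene in the 3 DMSO-treated and 3 mocetinostat-treated samples (points), with the mean and SD, on a linear axis that starts at 0. The treated samples of *CXCL8*, *CXCL1*, *IL1B*, *IL1A*, and *IL6* lay above every control, those of *LIF* and *CCL2* lay below, and those of *IL11*, *CXCL2*, and *IL32* overlapped the controls.

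The IL-6 family cytokines responded unequally. *LIF*, whose product maintains pluripotency in mouse embryonic stem cells and is made by stimulated chondrocytes (chromosome 22 of GRCh38 from 30240453 to 30246759, minus strand), was at 154, 188, and 202 CPM with DMSO and at 54.9, 42.8, and 65.5 CPM with mocetinostat. No treated sample reached the lowest control. Its mean fell from 181 ± 24.9 to 54.4 ± 11.4 CPM (SD, n = 3 each), a log2 fold change of −1.71 (SE 0.12, 95% interval −1.94 to −1.48, adjusted p = 7.31e-22 in edgeR's test), and it was called in all 16 fits.

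*IL11*, which encodes a cytokine with roles in bone and fibrosis (chromosome 19 from 55364382 to 55370463, minus strand), was at 99.0, 121, and 122 CPM with DMSO and at 88.6, 68.8, and 102 CPM with mocetinostat. Mocetinostat replicate 3 lay above DMSO replicate 1, so that the conditions overlapped. The log2 fold change was −0.37 (SE 0.11, adjusted p = 0.00311 in edgeR's test), smaller than the threshold for a call, and under *GAPDH* scaling it turned to 0.16 (adjusted p = 0.279).

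*IL6*, which encodes a main inducer of the acute-phase response (chromosome 7 from 22725884 to 22732002, plus strand), was at 37.1, 40.2, and 40.8 CPM with DMSO and at 50.4, 47.7, and 55.9 CPM with mocetinostat. Every treated sample was above every control, and the mean was 39.4 ± 2.00 CPM with DMSO and 51.3 ± 4.20 CPM with mocetinostat (SD, n = 3 each). The log2 fold change of 0.39 (95% interval 0.12 to 0.66, adjusted p = 0.00887 in edgeR's test) was below the threshold for a call. The log2 fold change was 0.32 (adjusted p = 0.0695) without mocetinostat replicate 3, 0.35 (adjusted p = 0.084) with DESeq2, 0.14 (adjusted p = 0.512) without a filter on low counts, and 0.93 (adjusted p = 1.54e-07) under *GAPDH* scaling. Exons of the antisense gene *IL6-AS1* covered 9.91% of the exon bases of *IL6* on the opposite strand, and whether the counting used strand is not given in the sources used here.

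Within each library, 1.55, 1.56, and 1.65 *LIF* reads were counted per *IL11* read with DMSO and 0.620, 0.622, and 0.640 with mocetinostat. Likewise, 0.241, 0.214, and 0.202 *IL6* reads were counted per *LIF* read with DMSO and 0.917, 1.12, and 0.854 with mocetinostat. Neither ratio overlapped between conditions, and neither depends on the scaling of the libraries. For each, the exact two-sided permutation p was 0.1, the smallest that 3 samples against 3 can give, and it stayed at 0.1 after adjustment over 3 ratios, which were chosen after their values were seen.

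**Figure D2:**
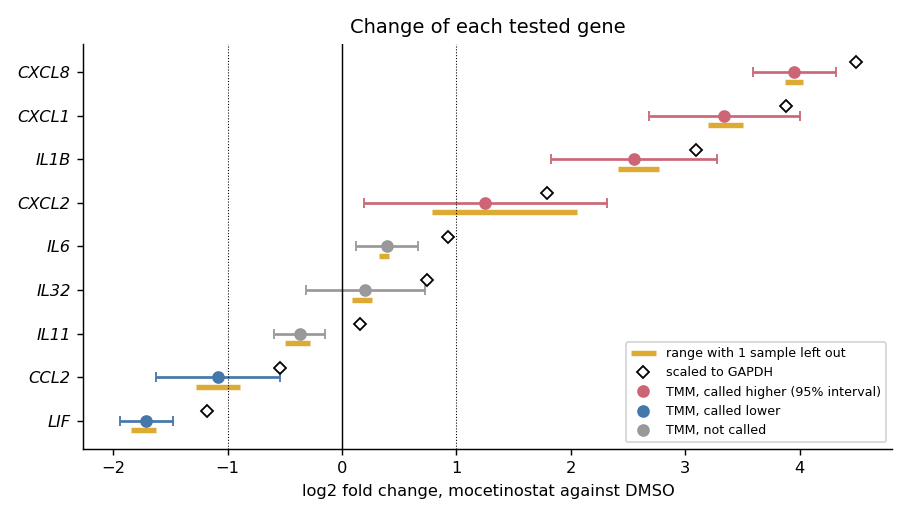
Points are log2 fold changes of the 9 genes tested, mocetinostat against DMSO, with 95% intervals from edgeR; yellow bars span the fits with 1 sample left out and diamonds are values after scaling to *GAPDH*. *CXCL8*, *CXCL1*, and *IL1B* lay above 1 in every fit shown, *LIF* lay below −1, and the bar of *CXCL2* crossed 1. The bar of *CCL2* crossed −1 (−1.28 to −0.90), and its diamond was at −0.54.

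The IL-1 genes were low with DMSO. *IL1B*, which encodes the secreted form of IL-1 that needs cleavage by caspase-1 (chromosome 2 from 112829751 to 112836816, minus strand), was counted 26, 8, and 11 times with DMSO and 58, 16, and 31 times with mocetinostat, which had smaller libraries. These counts correspond to 2.35, 1.67, and 1.62 CPM and to 11.5, 9.92, and 12.8 CPM, without overlap. The log2 fold change was 2.55 (SE 0.36, 95% interval 1.83 to 3.27, adjusted p = 4.81e-09 in edgeR's test), and *IL1B* was called in all 15 fits that tested it.

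*IL1A*, which encodes the form that is active without cleavage (chromosome 2 from 112773925 to 112784493, minus strand), lies 55.8 kb from *IL1B* by the lower ends of the genes. It was counted 5, 1, and 0 times with DMSO and 10, 5, and 11 times with mocetinostat, or 0.452, 0.208, and 0 CPM against 1.98, 3.10, and 4.56 CPM. All treated samples were above all controls, although the filter on low counts removed the gene. Without the filter, edgeR gave a log2 fold change of 3.27 (SE 0.87, adjusted p = 0.000958), and DESeq2 gave 3.67 (adjusted p = 0.00199). The antagonist gene *IL1RN*, in the same cluster, had 0 counts in every DMSO-treated sample and 4, 0, and 2 counts in the treated samples, too few to test.

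The neutrophil chemokines of the CXC cluster on chromosome 4 included the largest increases among the 9 genes tested. *CXCL8* (from 73740519 to 73743716, plus strand) was counted 51, 23, and 32 times with DMSO and 333, 131, and 180 times with mocetinostat. In CPM, controls were at 4.61, 4.79, and 4.72 and treated samples at 66.0, 81.2, and 74.6, so that the lowest treated sample was far above the highest control. The mean rose from 4.71 ± 0.0883 to 73.9 ± 7.60 CPM (SD, n = 3 each), 15.7 times as high, with a log2 fold change of 3.95 (SE 0.18, 95% interval 3.59 to 4.32, adjusted p = 4.98e-31 in edgeR's test). It was called in all 16 fits.

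*CXCL1* (from 73869393 to 73871308, plus strand), 129 kb from *CXCL8*, was counted 17, 7, and 15 times with DMSO and 89, 33, and 38 times with mocetinostat. These counts correspond to 1.54, 1.46, and 2.21 CPM and to 17.6, 20.5, and 15.7 CPM, without overlap. The mean was 10.3 times as high with mocetinostat, and the log2 fold change was 3.34 (SE 0.33, 95% interval 2.68 to 4.0, adjusted p = 2.29e-14 in edgeR's test). It was called in all 15 fits that tested it.

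*CXCL2* (from 74097040 to 74099196, minus strand), the paralog of *CXCL1*, was counted 10, 17, and 5 times with DMSO and 24, 3, and 8 times with mocetinostat. The values of 0.905, 3.54, and 0.737 CPM and of 4.76, 1.86, and 3.32 CPM overlapped, since DMSO replicate 2 lay above mocetinostat replicates 2 and 3. The log2 fold change of 1.25 (SE 0.53, 95% interval 0.19 to 2.31, adjusted p = 0.034 in edgeR's test) passed the thresholds. It was 2.05 without DMSO replicate 2 and from 0.78 to 0.86, no longer called, without DMSO replicate 1, DMSO replicate 3, or mocetinostat replicate 1. The call was also lost without mocetinostat replicate 3 (adjusted p = 0.057), without the filter (adjusted p = 0.237), and with DESeq2 (adjusted p = 0.325). Under glmTreat, edgeR's test of a change beyond the fold threshold, it was lost too (adjusted p = 0.513).

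The interval of *CXCL2* (0.19 to 2.31) and that of *CXCL1* (2.68 to 4.0) did not overlap. That separation was lost in some fits. Without DMSO replicate 2, *CXCL2* was at 2.05 (SE 0.65) and *CXCL1* at 3.24 (SE 0.35), so that intervals of 2 SE around them overlapped. Such intervals also overlapped without mocetinostat replicate 2 (*CXCL2* 1.42, SE 0.58, and *CXCL1* 3.24, SE 0.34). With DESeq2 they overlapped as well (*CXCL2* 1.02, SE 0.80, and *CXCL1* 3.33, SE 0.41). Per *CXCL2* read, 1.70, 0.412, and 3.00 *CXCL1* reads were counted with DMSO and 3.71, 11, and 4.75 with mocetinostat. All ratios were higher with mocetinostat than with DMSO (exact two-sided permutation p = 0.1, the smallest possible, and 0.1 after adjustment over the 3 ratios). The ratio of DMSO replicate 2 rested on 7 and 17 reads, and that of mocetinostat replicate 2 on 33 and 3 reads. No stretch of 100 bases, the read length, was shared between the main transcripts of these genes or with other genes.

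Their neighbors were read in the same way. *CXCL6*, 96.1 kb from *CXCL8*, was counted 14, 7, and 9 times with DMSO and 70, 14, and 30 times with mocetinostat and rose by a log2 fold change of 3.16 (SE 0.38, adjusted p = 3.90e-11 in edgeR's test). *CXCL3*, 296 kb away, was counted 12, 0, and 7 times and 26, 7, and 11 times and rose by 2.53 on the log2 scale (SE 0.54, adjusted p = 3.91e-05). Between and beside them, *PF4V1*, *PF4*, *PPBP*, and *CXCL5* had at most 2 counts in any sample and were not tested. *CXCL9*, *CXCL10*, and *CXCL11*, interferon-induced chemokines at least 2261 kb away, had at most 6 counts in any sample.

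**Figure D3:**
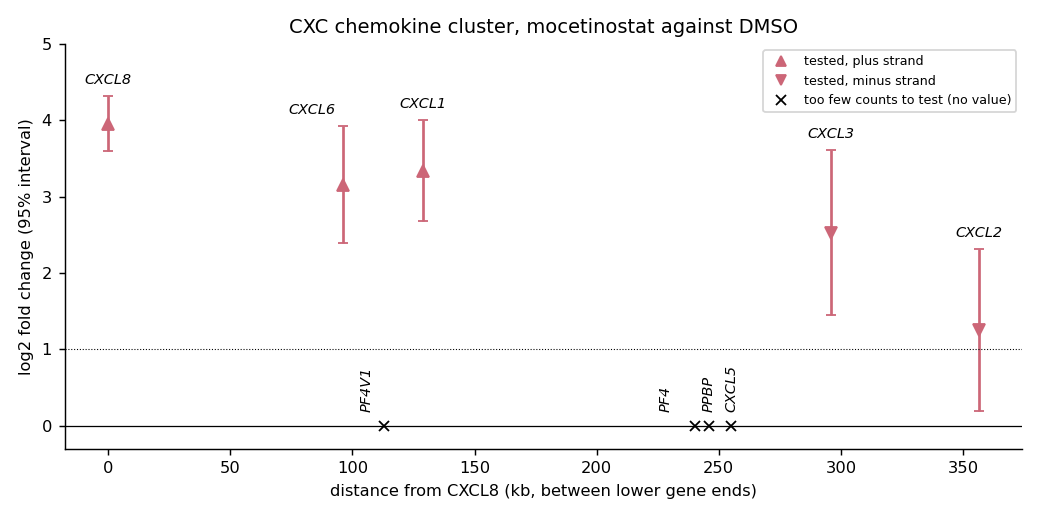
Log2 fold changes with 95% intervals (vertical axis) are plotted against distance from *CXCL8* in kb (horizontal axis), with triangles pointing up for the plus strand and down for the minus strand and crosses for genes with too few counts to test. *CXCL8*, *CXCL6*, *CXCL1*, *CXCL3*, and *CXCL2* were all above 0, from 3.95 down to 1.25, with untested genes between them.

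*CCL2*, the monocyte chemokine (chromosome 17 from 34255274 to 34257208, plus strand), was counted 141, 71, and 98 times with DMSO and 28, 15, and 15 times with mocetinostat. In CPM it was at 12.8, 14.8, and 14.4 with DMSO and at 5.55, 9.30, and 6.22 with mocetinostat, and every treated sample was below every control. Its log2 fold change was −1.08 (SE 0.27, 95% interval −1.62 to −0.54, adjusted p = 0.000368 in edgeR's test). The call was lost without mocetinostat replicate 1 (log2 fold change −0.90, adjusted p = 0.0159), which fell short of the fold threshold, and under *GAPDH* scaling (−0.54, adjusted p = 0.0786). It was also lost under glmTreat (adjusted p = 0.641). Of its neighbors, *CCL7* was counted 1, 4, and 1 times with DMSO and 5, 0, and 0 times with mocetinostat, and *CCL8* had at most 2 counts in any sample. *CCL11* (eotaxin), chosen after its values were seen, was counted 9, 4, and 14 times with DMSO and 1, 0, and 0 times with mocetinostat and did not pass the filter.

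*IL32* (chromosome 16 from 3065297 to 3082192, plus strand), which encodes a cytokine unrelated in sequence to the others, was at 10.1, 7.91, and 9.73 CPM with DMSO and at 11.3, 9.30, and 11.2 CPM with mocetinostat. The conditions overlapped, and the log2 fold change was 0.20 (95% interval −0.32 to 0.72, adjusted p = 0.508 in edgeR's test). Its sign turned without the filter (−0.05), where *GAPDH* was also lower (−0.78 against −0.53), and with all libraries thinned to the same total (−0.18). Under *GAPDH* scaling *IL32* was at 0.74 (adjusted p = 0.0116). It was not called in any of the 16 fits.

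Levels of different genes were compared per kilobase of exon. With DMSO, *LIF* was at 46.8 ± 6.44 and *IL11* at 42.6 ± 4.88 CPM per kb (SD, n = 3 each), with overlapping samples, followed without overlap by *IL6* at 9.11, *CCL2* at 7.23, *IL32* at 2.88, and *CXCL8* at 1.82. *CXCL1* at 1.27, *CXCL2* at 1.24, and *IL1B* at 0.625 overlapped each with the next, and *IL1A* was lowest at 0.109. With mocetinostat, *IL11* at 32.3 ± 6.30 and *CXCL8* at 28.6 ± 2.94 CPM per kb led and overlapped, and *LIF* at 14.0, *CXCL1* at 13.2, and *IL6* at 11.9 formed an overlapping run below them. *IL1B* at 3.80, *CCL2* at 3.63, *IL32* at 3.30, *CXCL2* at 2.37, and *IL1A* at 1.59 followed, each overlapping the next.

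The exon length used holds all annotated exons, which is 4321 bases for *IL6* against 1127 bases in its main transcript. With the length of the main transcript, an alternative chosen after seeing the data, *IL11* at 47.9 and *LIF* at 46.8 CPM per kb still led with DMSO, followed by *IL6* at 34.9. With mocetinostat, *IL6* at 45.6, *CXCL8* at 45.0, and *IL11* at 36.4 CPM per kb then led, and *LIF* at 14.0 followed *CXCL1* at 15.3. The place of *IL6* therefore depended on the length chosen.

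Summed over the 10 genes, levels were 99.5, 119, and 122 CPM per kb with DMSO and 112, 108, and 124 CPM per kb with mocetinostat, so that the sums overlapped. With the main transcript lengths they were 151, 173, and 178 CPM per kb with DMSO and 186, 183, and 204 CPM per kb with mocetinostat, and every treated sum lay above every control. The shares that follow are those with all exons unless stated. *CXCL8* made up 1.49% to 1.79% of the sum in DMSO-treated samples and 22.8% to 29% in mocetinostat-treated samples. *CXCL1* went from 0.898% to 1.33% up to 9.32% to 13.9%. The share of *LIF* was 39.9% to 42.7% with DMSO and 10.2% to 13.6% with mocetinostat. *IL11* held 37.1% to 37.8% and then 23.8% to 30.8%. With the main transcript lengths, the share of *CXCL8* was 1.62% to 1.87% with DMSO and 21.7% to 27.0% with mocetinostat, and that of *LIF* was 26.4% to 29.4% and 6.04% to 8.28%. *IL11* then held 27.6% to 29.3% and 15.8% to 21.1%, and *IL6* held 20.4% to 21.9% and 23.2% to 24.3%, against 7.72% to 8.62% and 10.2% to 10.4% with all exons.

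**Figure D4:**
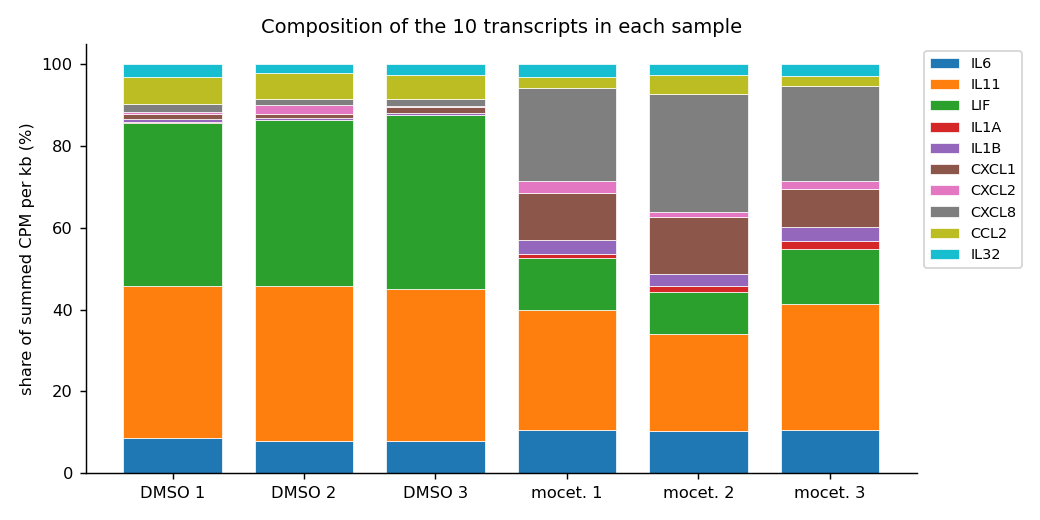
Stacked bars give, for each of the 6 samples, the share (%) of each gene in the CPM per kb summed over the 10 genes. *LIF* and *IL11* fill most of each DMSO bar, and *CXCL8* takes at most 1.79% of a DMSO bar and at least 22.8% of a mocetinostat bar.

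Receptors and partners of these cytokines were counted from lists of 180 genes in 13 groups. Of them, 88 were tested, 35 (39.8%) were upregulated, against 20.2% of all genes, and 5 (5.68%) were downregulated, against 8.18%. The lists were chosen with earlier results of these data known, so the difference from all genes is a description and not a test. Some list genes, such as *ACKR1* and *CX3CL1*, were hardly counted with DMSO. They passed the filter on low counts only through the treated samples, so they could hardly be called lower. Of the 35, 24 were called in every fit that tested them and 3 (*IL11RA*, *CISH*, and *JUN*) were lost when some sample was left out; of the 5, 2 were called in every such fit. All 7 IL-6 family receptor genes were tested, 6 rose, and the list's median log2 fold change was 1.33. *IL6ST*, which encodes the shared subunit gp130, rose from 451 ± 34.3 to 1239 ± 45.1 CPM (SD, n = 3 each), a log2 fold change of 1.46 (SE 0.07, adjusted p = 6.95e-30 in edgeR's test). *LIFR* (1.19), *OSMR* (1.33), *CNTFR* (2.14), *IL6R* (1.42), and *IL11RA* (1.09) were called higher on the log2 scale, and *IL27RA* (−0.42) was not called. The call of *IL11RA* was lost without DMSO replicate 3 or mocetinostat replicate 2, and its lowest log2 fold change with 1 sample left out was 0.81.

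Of 7 further IL-6 family ligand genes, 3 were tested. *CLCF1*, which encodes another gp130 cytokine, was counted 131, 67, and 95 times with DMSO and 9, 1, and 1 times with mocetinostat and fell by 3.44 on the log2 scale (SE 0.40, adjusted p = 1.08e-11 in edgeR's test), or by 4.67 without mocetinostat replicate 1. *EBI3*, a subunit gene of IL-27, rose by 2.51. *OSM* had at most 2 counts in any sample. The 13 genes of the JAK-STAT list had a median log2 fold change of 0.11. By the thresholds for a call, 0 were downregulated (8.18% of all genes) and 2 were upregulated (20.2%). They were *SOCS3*, a feedback inhibitor of gp130 signaling (18 ± 2.30 to 58.5 ± 11.4 CPM, log2 fold change 1.70), and *CISH* (1.02, not called in 7 of 15 alternatives), whereas *STAT3* (0.86) stayed under the fold threshold.

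In the IL-1 pathway, 3 of the 4 receptor genes tested were upregulated, against 20.2% of all genes. *IL1RAP*, the accessory chain of the IL-1 receptor, rose from 32.6 ± 5.32 to 83.4 ± 8.52 CPM (log2 fold change 1.33, adjusted p = 2.95e-14 in edgeR's test), and *SIGIRR*, an inhibitory receptor, by 2.13 on the log2 scale. *IL18R1* was counted 3 times in each DMSO-treated sample and 36, 21, and 24 times in the treated samples (adjusted p = 1.49e-11). *IL1R1*, the signaling receptor, had a log2 fold change of 0.95 (adjusted p = 6.49e-10), just under the fold threshold, and the decoy receptor gene *IL1R2* had at most 4 counts in any sample. Of 10 further ligand and antagonist genes of the family, 2 were tested and *IL18* was upregulated, with 0, 3, and 1 counts against 15, 5, and 9 (adjusted p = 5.48e-06), whereas *IL18BP* (−0.09 on the log2 scale) was not called.

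The 12 signaling genes tested downstream of IL-1 receptors had a median log2 fold change of −0.18. Of these 12, 3 were upregulated (20.2% of all genes) and 0 downregulated (8.18%) by the thresholds. *IRAK2* (1.18) and the E3 ligase gene *PELI1* (1.39) were among them, as was *PELI2*, counted 6, 1, and 2 times with DMSO and 73, 17, and 23 times with mocetinostat. The adaptor gene *MYD88* (−0.72) and *IRAK1* (−0.83) were not called. Of 7 genes tested for IL-1 processing, *CASP1*, whose product cleaves IL-1β, rose from 2.93 ± 0.592 to 11.8 ± 1.39 CPM (log2 fold change 2.05, adjusted p = 1.33e-07 in edgeR's test), and *CASP4* (1.26) and *NLRP1* (1.28) were also called higher. The median log2 fold change of the 7 was −0.18. Without a minimum fold change, 3 of them had an adjusted p under 0.05 and were higher (32.9% of all genes) and 3 were lower (31.4% of all genes).

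Of 14 further CXC chemokine genes, 5 were tested and 4 were upregulated, against 20.2% of all genes. Besides *CXCL3* and *CXCL6*, these were *CXCL16* (log2 fold change 1.27, adjusted p = 5.85e-07 in edgeR's test) and *CXCL14*, with 1, 2, and 3 counts against 53, 12, and 30 (adjusted p = 5.34e-13). Of 26 further CC, CX3C, and XC chemokine genes, only *CX3CL1* had enough counts to be tested, with 5, 0, and 3 counts against 38, 11, and 17 (adjusted p = 5.27e-10). The receptors of the neutrophil and monocyte chemokines were hardly counted. *CXCR1* was at 0 in every control and at 4, 2, and 1 counts in the treated samples, *CXCR2* at most 1, *ACKR3* at most 2, and *CCR2* at most 7 in any sample. Of 22 chemokine receptor genes only *ACKR1*, an atypical receptor that binds CXCL1, CXCL8, and CCL2, was tested, with 1, 2, and 0 counts against 29, 7, and 19 (adjusted p = 4.26e-10).

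Of 20 other secreted cytokine genes, 5 were tested and 3 were upregulated, against 20.2% of all genes. These were *TNFSF15* (log2 fold change 2.70), *IL15* (3.35), and *IL12A* (2.48), whereas *CSF1* (−0.51) and *MIF* (−0.25) were not called. *TNF* was counted 1 time in all 6 samples together. The 11 genes of proteins that bind AU-rich mRNA elements had a median log2 fold change of −0.41. By the thresholds, 1 was upregulated (20.2% of all genes) and 1 downregulated (8.18%). *ZFP36* rose from 12.3 ± 1.86 to 30.1 ± 3.58 CPM (1.28, adjusted p = 4.17e-08 in edgeR's test), and *TIA1*, a translational silencer, fell by 1.17 on the log2 scale, though under *GAPDH* scaling it was at −0.63 and not called. Without a minimum fold change, 8 of the 11 had an adjusted p under 0.05 and were lower (31.4% of all genes) and 2 were higher (32.9% of all genes).

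Of 17 genes of factors known to bind such promoters and of their regulators, 5 were upregulated (20.2% of all genes) and 3 downregulated (8.18%). *FOS* rose from 4.64 ± 0.888 to 25.1 ± 3.19 CPM (log2 fold change 2.44, adjusted p = 8.63e-14 in edgeR's test), *JUN* by 1.02, and *ATF3* by 1.18, while *FOSL1*, another AP-1 member, fell from 173 ± 27.5 to 63.0 ± 8.84 CPM (−1.48). The call of *JUN* was lost in 6 of 15 alternatives, among them DESeq2 (0.98), no filter (0.76), and the fits without DMSO replicate 1 (0.86), mocetinostat replicate 1 (0.98), or mocetinostat replicate 2 (0.98). Under *GAPDH* scaling *FOSL1* was at −0.95 and not called. Among NF-κB genes, *NFKB1* fell by 1.77 on the log2 scale, *RELA* had a value of −0.24 and *NFKBIA* of 0.13, neither called, and the NF-κB regulators *TNFAIP3* (1.79) and *NFKBIZ* (1.76) rose. *CEBPD* fell by 1.88, and *CEBPB* at 0.99 stayed under the fold threshold. These are RNA levels of the factors and not their activity.

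**Figure D5:**
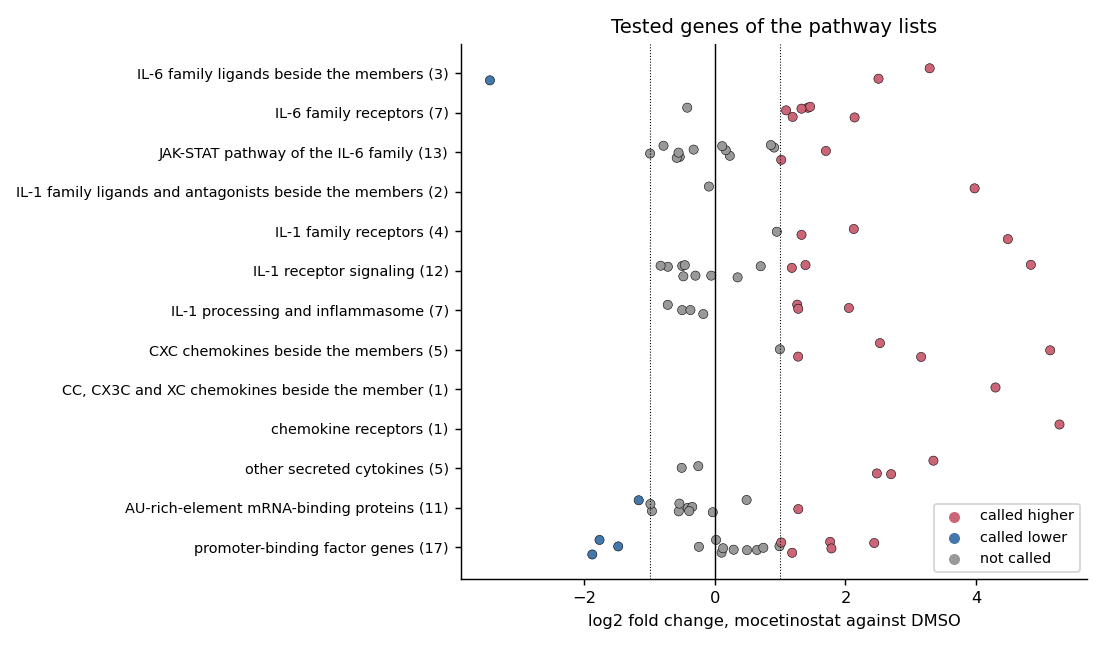
Each point is the log2 fold change, mocetinostat against DMSO, of 1 tested gene (horizontal axis) in its list (rows), colored by call. Points for the IL-6 family receptors lie to the right of 1 in 6 of 7 cases, and those of the AU-rich-element-binding proteins lie mostly left of 0; 4 genes with at most 3 counts in every DMSO-treated sample are placed at fitted values that depend on the prior count.

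Markers of cell types were read beside these results. Of all genes tested, 20.2% were called higher, the share to set beside each count of markers that rose. Of 12 chondrocyte markers, 9 were tested and 6 rose, and their summed level was 122 to 145 CPM with DMSO and 266 to 309 CPM with mocetinostat. *SOX9*, the defining transcription factor, was present in all samples (log2 fold change 0.77). Of 10 leukocyte markers, 2 were tested and 1 rose (*CD14*, 15, 1, and 8 counts against 21, 16, and 20). Their sum was 6.78 to 10.8 CPM with DMSO and 10.9 to 15.5 CPM with mocetinostat, *CD3E* was at 0 in every sample, and *PTPRC* had 2, 9, and 0 counts against 3, 2, and 0. Of 5 endothelial markers, 4 were tested and 3 rose (sum 5.61 to 8.12 against 41.5 to 46.8 CPM), and of 5 epithelial markers, 4 were tested and 3 rose (sum 899.5 to 1083 against 1935 to 1988 CPM, mostly *KRT8* and *KRT18*). Their part in the cytokine results was not tested.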

How the data were processed

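RNA-Seq covered 3 TC28a2 samples given mocetinostat (2 μM, 24 hours) and 3 given DMSO. The authors deposited 1 table of raw counts per gene. Per the paper's methods and the submitters' processing notes, adapters were trimmed, ribosomal RNA reads removed, the rest aligned to GRCh38 with STAR 2.6.1d, and reads assigned to genes with featureCounts 1.6.4. Strand use and the handling of reads that map to several genes are not given in the sources used here.

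From the counts, TMM factors were computed in edgeR 4.0.16 (R 4.3.3), and filterByExpr (minimum count 10) left 13966 of 60623 genes for its quasi-likelihood test, treatment being the only term. Adjustment by Benjamini-Hochberg ran over all genes tested. The study's thresholds (adjusted p under 0.05, absolute log2 fold change over 1) defined upregulated and downregulated genes. No set was tested; lists are described by counts and medians. The script was tested on simulated data. Positions, exon lengths, and 3′ UTRs are from GENCODE release 44 (99.46% of identifiers matched), and promoters are from RefSeq (GRCh38.p14), which matched 8 of the 10 genes; *LIF* and *CCL2* are the others.

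The members and lists were chosen with earlier results of these data known. All 10 members are named, with *GAPDH*, the receptors, antagonists, and nearest paralogs of the members, and from each list the called gene with the highest mean CPM per direction and the one with the largest change; other list genes are named as examples chosen after their values were seen. Some list genes are counted but not reported here by name. Each sample counted as a replicate. Replicate pairs differed by more than sampling noise (chi-square per degree of freedom 1.93 to 7.95), which does not show whether the spread was biological or technical. Count-based limits cover counting error only, since the reads carry no molecular identifiers. Alternatives were DESeq2 1.42.0, RLE factors, library size only, *GAPDH* scaling, no filter, a minimum of 10 counts per sample, a replicate block, glmTreat, thinning to 1619344 counts per library, and leaving out each sample. In fits that leave out a sample, the remaining ones of that condition set its spread together with the other condition.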

Additional observations from a re-analysis of the deposited data

How the results depend on the processing

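*LIF* and *CXCL8* were called in all 16 fits, and *IL1B* and *CXCL1* in all 15 that tested them. With at least 10 counts in every sample, 1 of the 4 upregulated cytokine and chemokine genes was called, since *IL1B*, *CXCL1*, and *CXCL2* were not tested. That filter also left 1620 upregulated and 704 downregulated genes of all and 3 downregulated genes of the pathway lists, fewer genes being tested. Scaling to *GAPDH* gave 4425 upregulated and 284 downregulated genes (94.0% of calls upregulated, against 71.2%), 1 downregulated cytokine or chemokine gene, and 3 downregulated list genes, and it turned the log2 fold change of *IL11* to 0.16. Without a filter, 2120 genes (60.2% of calls upregulated) and 12 list genes were downregulated and the log2 fold change of *IL32* turned to −0.0469. Other log2 fold changes were lower in that fit too: *GAPDH* was at −0.78 against −0.53, *LIF* at −1.96 against −1.71, *CXCL8* at 3.70 against 3.95, and *IL6* at 0.14 against 0.39. glmTreat gave 465 downregulated genes (81.6% of calls upregulated), 1 cytokine or chemokine gene, and 3 list genes, a larger change being required. DESeq2 gave 8 downregulated list genes; the cause was not tested. Thinning turned *IL32* to −0.18.

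With 1 sample left out, 2842 to 3216 genes were upregulated and 1173 to 1267 downregulated. Of the cytokine and chemokine genes, 4 to 5 were upregulated (the fits that tested *IL1A* called it) and 1 to 2 downregulated, *CCL2* being lost without mocetinostat replicate 1. Of the list genes, 32 to 37 were upregulated and 5 to 7 downregulated.

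No pairing by replicate number was seen: correlations of deviations for equal numbers were 0.00779, 0.0116, and −0.0162. For unequal numbers they ranged from −0.0281 to 0.0255. Counting noise in these small libraries can hide a shared effect, so these values cannot show that the samples were unpaired. With the replicate block, 2798 genes were upregulated and 1133 downregulated, 4 and 2 of them cytokine and chemokine genes. Genes counted fewer than 10 times in at least 3 samples (*IL1A*, *CXCL2*, and the receptors of the chemokines) are limited by depth, above all in mocetinostat replicate 2.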
